A study of Homo sapiens with 6 samples.

Results

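The genes described here are the enzymes that cut the extracellular matrix and the proteins that hold them in check: the matrix metalloproteinases (MMP), the secreted ADAMTS proteases, the tissue inhibitors of metalloproteinases (TIMP), the plasminogen activators with the urokinase receptor, 4 cathepsins and heparanase. They are the genes whose symbols fall in these families, and 53 of the 19771 genes named on the array belong to them (22 MMP, 19 ADAMTS and 4 TIMP genes, PLAU, PLAUR, PLAT, CTSB, CTSD, CTSL, CTSS and HPSE). Expression was compared between 2 stable derivatives of MDA-MB-231, a triple-negative breast cancer line known for its invasiveness, on 6 1-colour oligonucleotide arrays, 3 for each line. The line labelled MB-231-maspin received by lentivirus, under the CMV promoter, the serpin maspin linked through a P2A peptide to the fluorescent protein ZsGreen, and MB-231-control received ZsGreen alone. Both lines were selected with blasticidin, grown as pools of surviving clones and kept in Leibovitz L-15 medium with serum. The comparison asks which transcripts differ in cells made to carry maspin, whose effect on invasion the study examined. Each line is a single pool, so an effect of maspin and a difference between the pools cannot be told apart.

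Metalloproteinases are made as inactive precursors and work with a zinc ion in the active site. Collagenases cut fibrillar collagen, gelatinases cut denatured collagen and the collagen of basement membranes, stromelysins and matrilysins take many matrix and cell-surface proteins, and the membrane-type enzymes act at the cell surface, where MMP14 also activates MMP2. TIMPs bind and block the active enzymes. Urokinase, held at the surface by its receptor, turns plasminogen into plasmin, which cuts fibrin and activates several MMP precursors. These systems are known for their part in the invasion of breast cancer cells through basement membrane and stroma.

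Values are normalized intensities, background-subtracted and scaled to a median of 25 on each array, and brightness is not compared between probes of different genes. Between 87.1% and 91.3% of the 24460 gene probes had a value on each array, and the brightest of the 96 negative control spots of an array lay between 2.58 and 9.35. Nothing in the labels or methods says whether the 3 arrays of a line come from separate cultures, so the p-values cover the spread between arrays alone, and that spread may be technical. SERPINB5, which encodes maspin, had no higher signal in the samples labelled MB-231-maspin (4.20, 2.79 and 4.40) than in those labelled MB-231-control (5.10, 5.61 and 4.11), and it was not determined whether the probe reads the cDNA in the vector. These values lie within the range of the brightest negative control spots, so this probe does not decide whether the line overexpressed maspin. The name MB-231-maspin is therefore used below as a label. All 6 genes listed as markers of mesenchymal MDA-MB-231 cells (VIM, CD44, CAV1, AXL, MSN and FOSL1) were measured above 10. Of the genes listed as low in that line ESR1 and PGR were not above 10, whereas ERBB2, GATA3, CDH1 and EPCAM were, with means between 16.7 and 103. Of the markers of other cells, COL1A1, COL1A2, COL3A1, PECAM1, CDH5, VWF, PTPRC, CD3E and LYZ had means of 10 or less in both lines, the summed level of the fibroblast list ranged from 101 to 119 on the control and from 103 to 124 on the maspin arrays, and no marker passed the test. Within the control group, replicate 2 was the highest of the 3 arrays for 71.4% of all genes tested and replicate 3 the lowest for 71.7%. For the protease genes the same arrays were the highest for 18 and the lowest for 21 of 26.

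MMP7 was the only gene of the 53 to pass the test between the lines, and its level was lower on the arrays labelled MB-231-maspin. A gene was tested if its mean intensity was above 10 in either line, and 26 of the 53 were. In limma's fit over all 12766 genes tested, 1 of the 26 was called lower and 0 higher at a Benjamini-Hochberg adjusted p under 0.05, where 0.321% of all genes tested were called lower and 0.533% higher. At an unadjusted p under 0.05, 5 of the 26 were lower (MMP7, MMP1, ADAMTS1, TIMP4 and CTSB) and 0 higher, against 3.84% and 9.49% of all genes. The 3 arrays of each line did not overlap for 4 of the 26 in the lower direction (MMP7, ADAMTS1, TIMP4 and CTSB) and for MMP24 in the higher one, against 6.87% and 13.8% of all genes. The split of all genes at the unadjusted threshold moved with the scaling and with single control arrays. It was 1212 higher and 490 lower as reported, 1186 and 816 after quantile normalization, 1208 and 1083 after normexp background correction with quantile normalization, 2807 and 516 when control replicate 2 was left out, and 767 and 864 when control replicate 3 was. Of the 26, 3 were higher (CTSS, PLAU and ADAMTS13) and 4 lower without control replicate 2, 0 higher and 7 lower without control replicate 3, and 0 higher and 3 lower without control replicate 1, maspin replicate 2 or maspin replicate 3. The median log2 difference was -0.08 over the 26 and 0.04 over all genes tested, with 15 of the 26 and 5120 of the 12766 below 0. The median over the 26 was -0.13 without control replicate 3, -0.05 without control replicate 1, -0.02 without control replicate 2 or maspin replicate 3, and -0.0027 over the 11 with a mean above 50. HPSE passed the minimum of 10 through its mean on the maspin arrays alone.

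**Figure D1:**
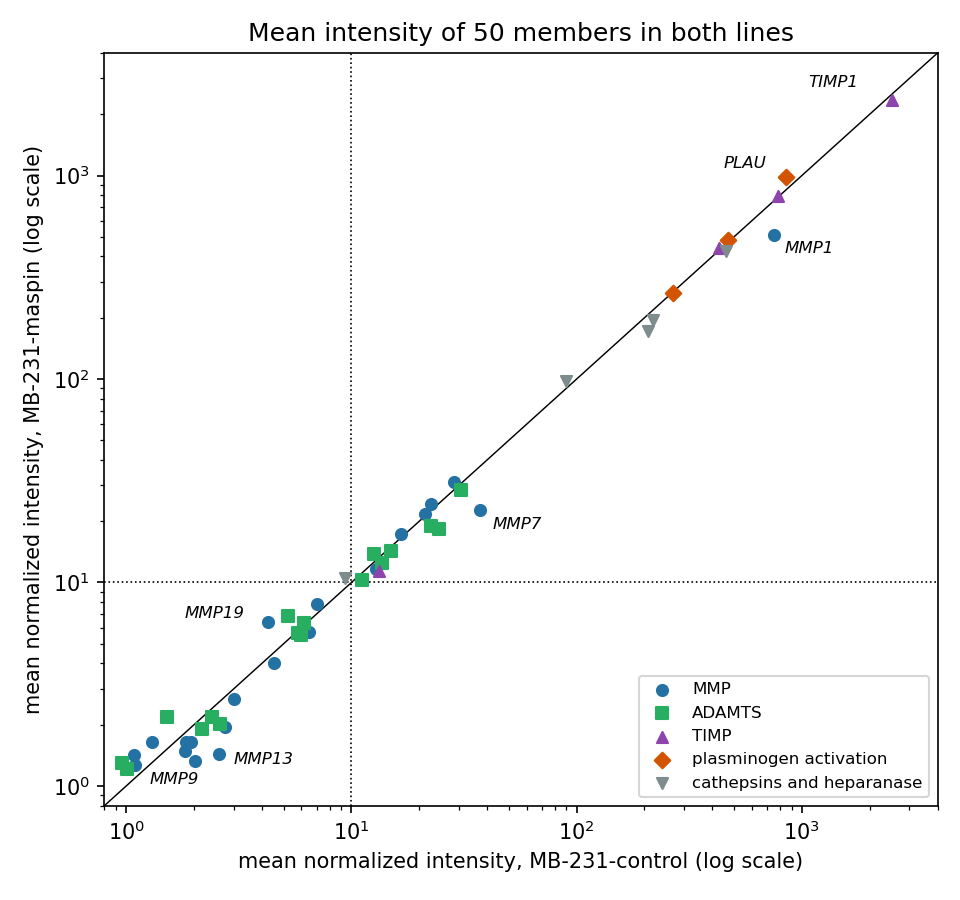
Mean normalized intensity on the 3 arrays of each line for the 50 genes with a value in both, on log axes, with MB-231-control on the x axis and MB-231-maspin on the y axis. Each point is a gene, the diagonal marks equal means and the dotted lines mark the minimum of 10; MMP7 (37.2 and 22.7) and MMP1 (754 and 512) lie under the diagonal on the right of the minimum.

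The 25 other genes tested had adjusted p-values from 0.125 to 0.997. Their 95% intervals reached between 0.18 and 0.49 on the log2 scale to either side of the estimate (median 0.25), and for 21 of the 25 the whole interval lay within a 1.5-fold difference in either direction. The other 27 genes had means of at most 7.85. They include both gelatinases, the 3 procollagen N-propeptidases ADAMTS2, ADAMTS3 and ADAMTS14, and MMP10, ADAMTS5 and ADAMTS20, which were left blank on every array because their spots lay close to the background. Over all 53 genes, 26 were above the brightest negative control on each of the 6 arrays and 19 on none.

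**Figure D2:**
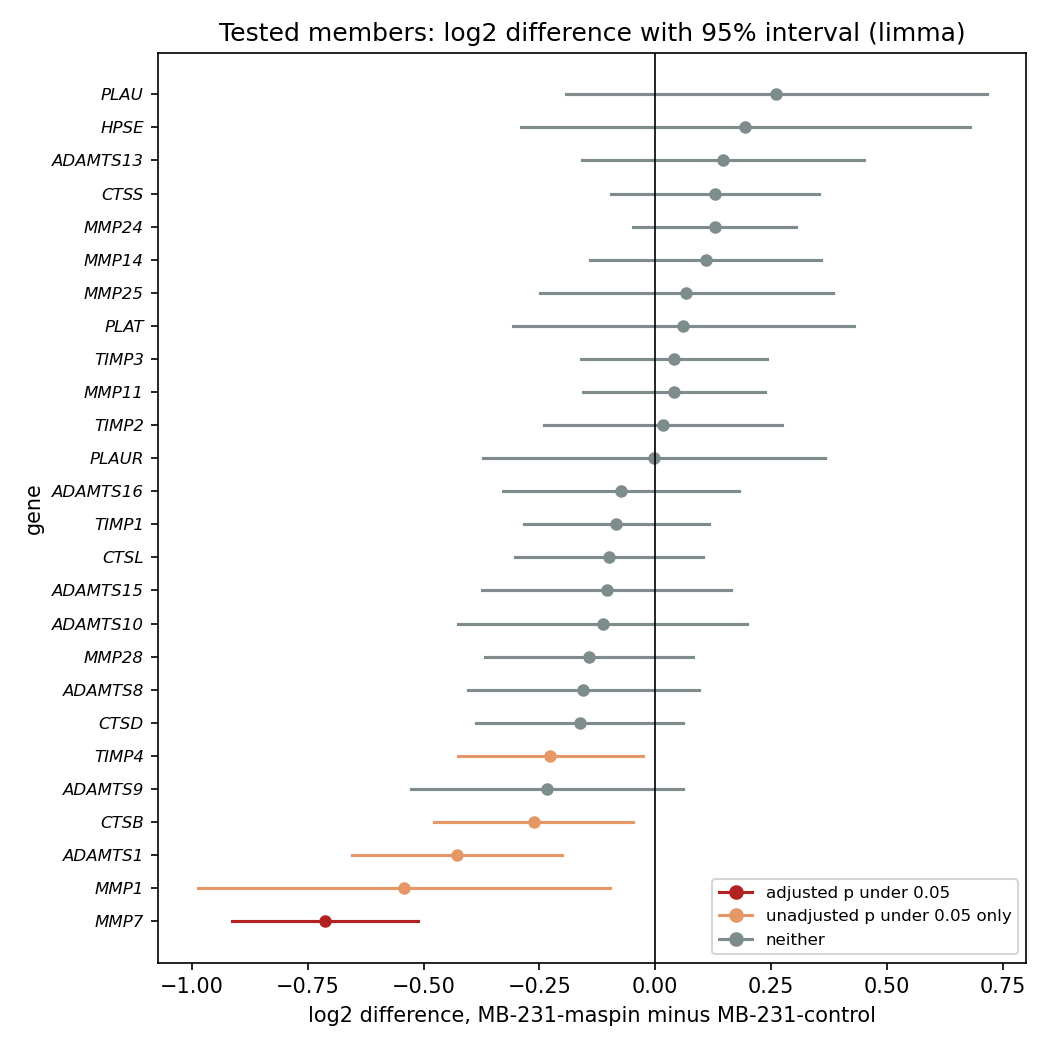
Log2 difference (MB-231-maspin minus MB-231-control) of the 26 genes tested, as points, with limma's 95% interval as bars. MMP7 at -0.71 is the gene called at an adjusted p under 0.05; the intervals of MMP1, ADAMTS1, CTSB and TIMP4 lie below 0 and those of the other 21 genes cross it.

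MMP7 (matrilysin, Entrez Gene 4316, chromosome 11), a small metalloproteinase that lacks the hemopexin domain of most of the family and sheds cell-surface proteins such as E-cadherin and Fas ligand, had the log2 difference farthest from 0 of the 26 genes tested. Its normalized intensity was 34.6, 37.9 and 39.1 on the 3 control arrays (mean 37.2 ± 2.36, SD, n = 3) and 21.7, 22.0 and 24.5 on the 3 maspin arrays (mean 22.7 ± 1.54, SD, n = 3). Every control array was above every maspin array, and the gap between the groups was wider than the spread within either. The log2 difference was -0.71 (SE 0.09, 95% interval -0.91 to -0.51, limma adjusted p = 0.0107), a level 0.61 times that of the control. The spots were dim, with raw intensities from 111 to 149 where the background was between 67.8 and 70.3, and with normexp background correction the difference was -0.39 (adjusted p = 0.0214). The call was lost without maspin replicate 1 (-0.68, adjusted p = 0.0736), without maspin replicate 2 (-0.69, adjusted p = 0.0966) and with the methods' t-test after Benjamini-Hochberg adjustment (adjusted p = 0.106), a test that MMP7 passed at the unadjusted threshold of the methods. RNA was taken from whole cultures, so fewer cells with the transcript and less of it per cell cannot be told apart.

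The sequence before the start of MMP7 is shown because it is the gene that passed the test. RefSeq places these 250 bases on the minus strand of GRCh38.p14 at chr11:102530748-102530997, and they are printed 5′ to 3′ up to the base before the start. Capitals mark the matches, on either strand, to the AP-1 motif TGANTCA and to the PEA3 motif AGGAAG, here in its reverse form. Both motifs are textbook elements of metalloproteinase promoters.
MMP7: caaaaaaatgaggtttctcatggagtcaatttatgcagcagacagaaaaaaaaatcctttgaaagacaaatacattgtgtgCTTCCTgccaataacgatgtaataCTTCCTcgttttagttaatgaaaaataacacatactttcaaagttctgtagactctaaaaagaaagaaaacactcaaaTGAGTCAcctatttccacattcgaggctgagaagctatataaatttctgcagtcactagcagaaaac
The AP-1 match begins 67 bases before the start, and the 2 PEA3 matches begin 169 and 145 bases before it. Windows of this length were at hand for 31 of the 53 genes. An AP-1 match was found in 5 of these 31 (16.1%) and in 6.57% of 35116 promoters, and a PEA3 match in 9 of 31 (29.0%) and in 28.7% of the promoters. Such matches describe the letters and say nothing of binding.

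MMP7 opens a run of 9 metalloproteinase genes on chromosome 11 that in GRCh38.p14 stand in the order MMP7, MMP20, MMP27, MMP8, MMP10, MMP1, MMP3, MMP12 and MMP13, with no other protein-coding gene starting between them. In this run MMP7 and MMP1 reached the minimum of 10. The other 7 did not, with means from 1.08 (MMP12, control) to 4.53 (MMP20, control) and MMP10 blank throughout.

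MMP1, the interstitial collagenase, cuts fibrillar collagen and is known as a highly expressed protease of MDA-MB-231 cells. It measured 922, 778 and 562 on the control arrays (mean 754 ± 181, SD, n = 3) and 420, 520 and 596 on the maspin arrays (mean 512 ± 88.2, SD, n = 3). The groups overlapped, since control replicate 3 lay below maspin replicate 3. The log2 difference was -0.54 (SE 0.19, 95% interval -0.99 to -0.10, limma adjusted p = 0.279) and did not pass the test. Whether it passed depended on 1 array: without control replicate 3, where 0.718% of all genes were called lower, it was -0.74 with an adjusted p of 0.0146, the range without any other single array being -0.66 to -0.38 with no call.

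The other collagenases, MMP8 and MMP13, and the gelatinases MMP2 and MMP9 stayed below the brightest negative control spot on all 6 arrays. MMP13 read 2.63 and 2.54 on control replicates 1 and 2 and was blank on control replicate 3, against 1.66, 1.22 and 1.42 on the maspin arrays. In the fit with no minimum its log2 difference was -0.86 (unadjusted p = 0.00119, adjusted p = 0.149). MMP2 read 3.55, 3.33 and 2.18 in control and 3.00, 2.55 and 2.44 in maspin. MMP9 had values between 1.04 and 1.29 on 4 arrays and was blank on the other 2. Among the stromelysins, which activate other MMP precursors, MMP3 was between 1.13 and 2.16 on 5 arrays. MMP11 (stromelysin-3), an enzyme best known from the stroma around tumours, read 21.5, 22.5 and 19.7 in control and 22.6, 22.4 and 20.5 in maspin. Its groups overlapped and the log2 difference of 0.04 (SE 0.09, adjusted p = 0.875) was -0.01 without control replicate 3.

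**Figure D3:**
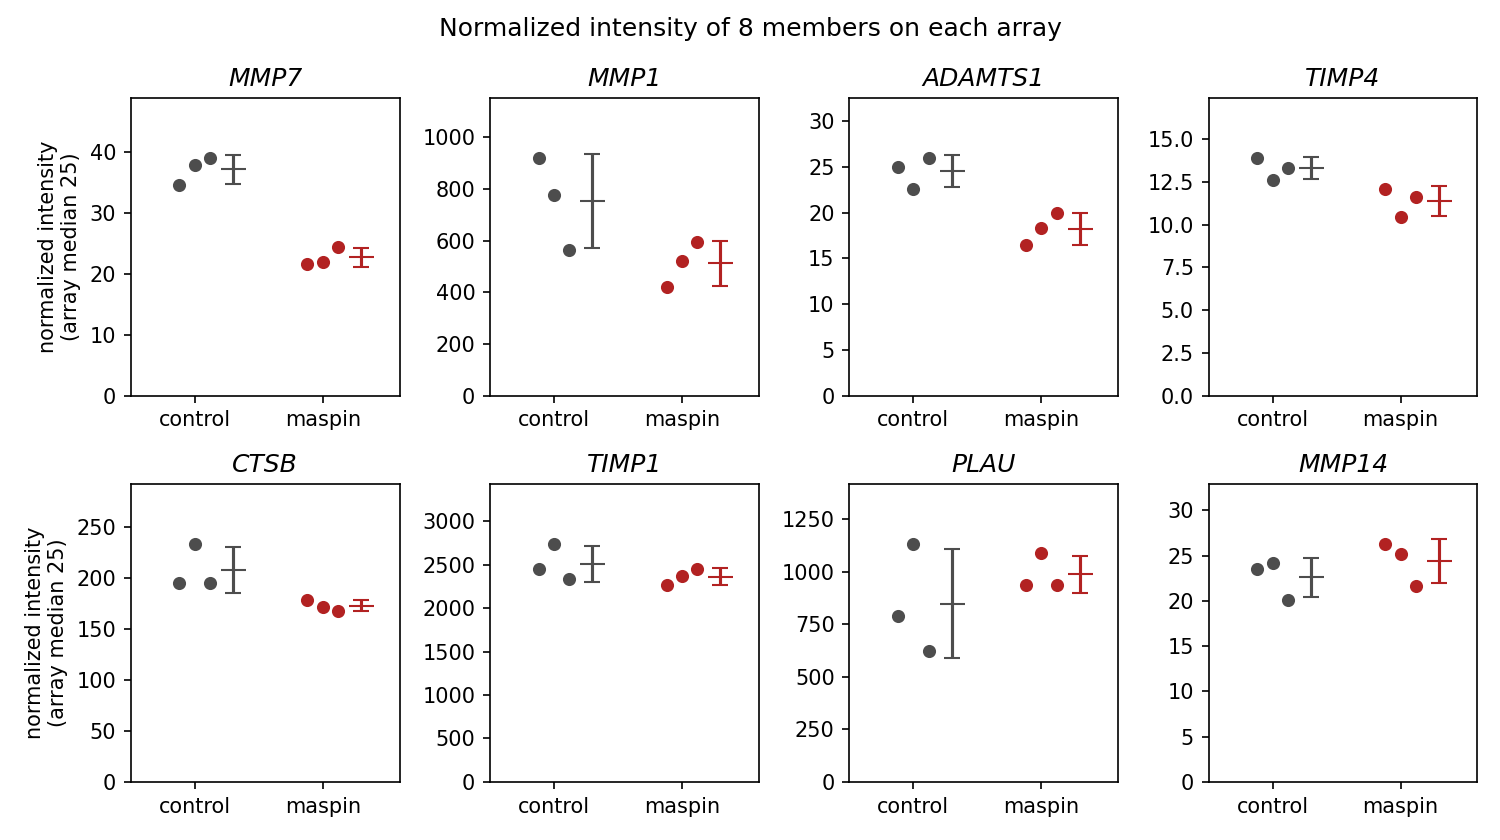
Normalized intensity (linear axis from 0, array median 25) of MMP7, MMP1, ADAMTS1, TIMP4, CTSB, TIMP1, PLAU and MMP14 on each of the 3 arrays of MB-231-control and MB-231-maspin, with the mean and SD as the bar beside the points. The arrays of the lines separate for MMP7, ADAMTS1, TIMP4 and CTSB and overlap for the other 4 genes.

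The membrane-type enzymes tested were all above 0 and none passed the test. MMP14, the chief activator of MMP2 and a collagenase of the cell surface, measured 23.5, 24.1 and 20.1 in control and 26.3, 25.2 and 21.6 in maspin. The lowest array of each line was its replicate 3, and the log2 difference was 0.11 (SE 0.11, 95% interval -0.14 to 0.36, adjusted p = 0.707). MMP24 measured 28.8, 28.7 and 27.9 in control and 32.5, 31.7 and 29.2 in maspin. All 3 maspin arrays were above all 3 control arrays, by a log2 difference of 0.13 (SE 0.08, adjusted p = 0.507). MMP25, known from leukocytes, had 0.07, and MMP15, MMP16 and MMP17 were under the minimum. Of the remaining metalloproteinases MMP28 (epilysin) had -0.14 (adjusted p = 0.560).

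MMP19 was under the minimum and is named after its values were seen. Its brightest probe read 5.11, 3.90 and 3.81 in control and 5.78, 6.31 and 7.15 in maspin. The groups did not overlap on this probe, with a log2 difference of 0.59 (adjusted p = 0.242 in the fit with no minimum), but they overlapped on both other probes of the gene.

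The ADAMTS proteases carry thrombospondin motifs that tie them to the matrix. Of the 19 genes 7 were tested, with means between 10.3 and 30.7. Of these 6 had log2 differences below 0, against 5120 of the 12766 genes tested in all, and none passed the test. The 4 tested members of the group that cuts aggrecan and versican (ADAMTS1, ADAMTS8, ADAMTS9 and ADAMTS15) lay between -0.43 and -0.10, with a median of -0.19. ADAMTS1, which cuts versican and aggrecan and can restrain the growth of vessels, measured 25.0, 22.6 and 26.0 in control (mean 24.5 ± 1.74, SD, n = 3) and 16.5, 18.4 and 20.0 in maspin (mean 18.3 ± 1.75, SD, n = 3). Every maspin array was below every control array. The log2 difference was -0.43 (SE 0.10, 95% interval -0.65 to -0.20) with a limma adjusted p of 0.125, and it was -0.20 with normexp background correction.

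ADAMTS9 measured 25.7, 23.8 and 18.1 in control and 19.0, 19.0 and 18.8 in maspin. The 3 maspin arrays were close to each other, and control replicate 3 lay below all of them (log2 difference -0.23, SE 0.13, adjusted p = 0.474). ADAMTS8 and ADAMTS15 had -0.15 and -0.10 with overlapping arrays. ADAMTS13, the protease that trims von Willebrand factor, had the difference farthest from 0 among the other tested members, at 0.15 (SE 0.13, adjusted p = 0.672), with 11.8, 14.8 and 11.0 in control and 15.3, 14.0 and 12.2 in maspin. ADAMTS10 and ADAMTS16 had -0.11 and -0.07. The procollagen N-propeptidases, which trim procollagen before fibrils form, had means between 5.53 and 6.29 and were not tested.

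All 4 inhibitors were measured above the minimum. TIMP1, which blocks most secreted MMPs, measured 2451, 2742 and 2334 in control (mean 2509 ± 210, SD, n = 3) and 2264, 2372 and 2454 in maspin (mean 2363 ± 95.2, SD, n = 3). The groups overlapped and the log2 difference was -0.08 (95% interval -0.28 to 0.12, adjusted p = 0.718), with -0.018 without control replicate 2 and -0.13 without control replicate 3. TIMP2, which also helps MMP14 to activate MMP2, measured 718, 919 and 716 in control and 818, 799 and 750 in maspin, and its log2 difference of 0.02 (95% interval -0.24 to 0.27, adjusted p = 0.961) was -0.06 with normexp. TIMP3, which is bound to the matrix and also blocks ADAM17 and several ADAMTS enzymes, measured 426, 468 and 392 in control and 450, 440 and 429 in maspin. Its 3 maspin arrays lay inside the range of the controls, and the log2 difference of 0.04 (95% interval -0.16 to 0.24, adjusted p = 0.875) was -0.02 with normexp. TIMP4 measured 13.9, 12.6 and 13.3 in control and 12.1, 10.4 and 11.6 in maspin. All its maspin arrays were below the controls, by a log2 difference of -0.23 (SE 0.09, adjusted p = 0.315) that was -0.08 with normexp.

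None of the 3 genes of plasminogen activation passed the test, and for each the lowest array of all 6 was control replicate 3. PLAU, which encodes urokinase, measured 790, 1132 and 621 in control (mean 848 ± 261, SD, n = 3) and 938, 1090 and 936 in maspin (mean 988 ± 88.6, SD, n = 3). The maspin arrays lay between the extremes of the controls. The log2 difference was 0.26 (SE 0.20, 95% interval -0.19 to 0.72, adjusted p = 0.609), and its size rested on the control arrays, with 0.06 without control replicate 3 and 0.49 without control replicate 2 (adjusted p = 0.0899). A second PLAU probe gave 0.19. PLAUR, the urokinase receptor, measured 286, 316 and 203 in control and 247, 292 and 254 in maspin (95% interval of the log2 difference -0.37 to 0.37, adjusted p = 0.997). PLAT, the tissue activator, measured 469, 574 and 367 in control and 458, 540 and 453 in maspin. The groups overlapped for both genes, and the log2 difference of 0.06 for PLAT (95% interval -0.31 to 0.43, adjusted p = 0.904) was -0.02 with normexp.

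The cathepsins are lysosomal proteases that tumour cells can also secrete. CTSB, a cysteine protease that can activate urokinase, measured 195, 233 and 194 in control (mean 208 ± 22.2, SD, n = 3) and 179, 171 and 168 in maspin (mean 173 ± 5.49, SD, n = 3). All maspin arrays were below all control arrays. The log2 difference of -0.26 (SE 0.09, 95% interval -0.48 to -0.05, limma adjusted p = 0.279) passed the test in the alternative with normexp (-0.29, adjusted p = 0.0318), which called 0.799% of all genes lower. CTSD, an aspartic protease, had -0.16 (adjusted p = 0.507), and CTSL, a cysteine protease, had -0.10 (adjusted p = 0.668). CTSS, a cysteine protease best known from antigen presentation, had 0.13 (adjusted p = 0.609). In all 3 of these genes the arrays of the lines overlapped. HPSE, which cleaves heparan sulfate chains, measured 10.6, 11.1 and 6.39 in control and 9.53, 12.3 and 9.59 in maspin. Its log2 difference of 0.19 (SE 0.21, adjusted p = 0.730) was -0.06 without control replicate 3, the array on which it was lowest.

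**Figure D4:**
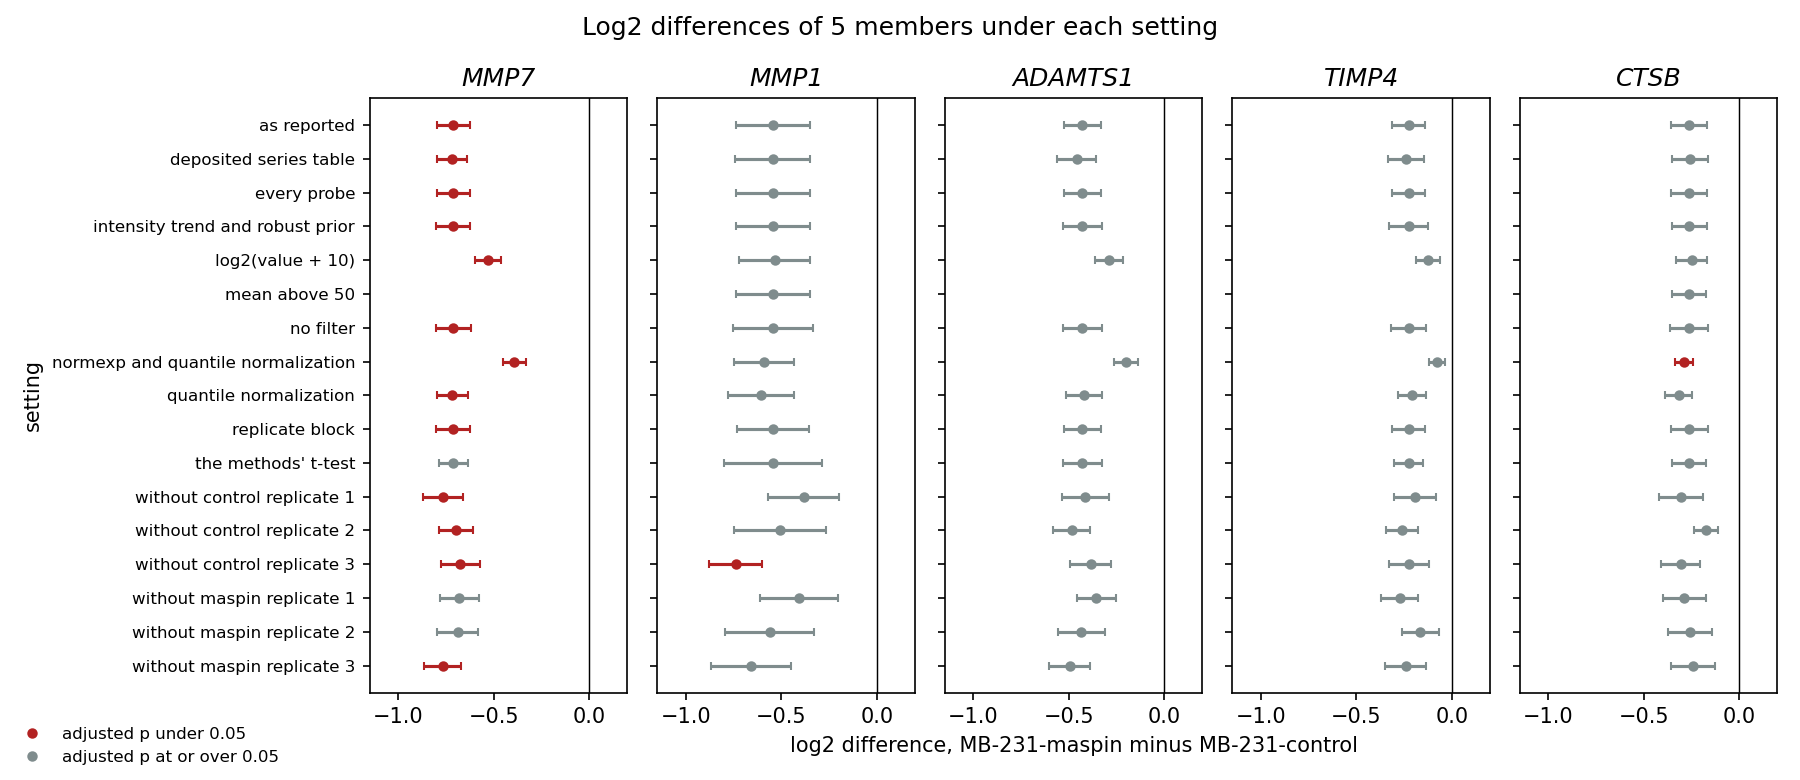
Log2 difference (MB-231-maspin minus MB-231-control) of MMP7, MMP1, ADAMTS1, TIMP4 and CTSB as reported and under each alternative that gave a value; bars are the SE and red marks an adjusted p under 0.05. MMP7 ranges from -0.77 to -0.39 and is not red with the methods' t-test and without maspin replicates 1 or 2, while MMP1 is red without control replicate 3 and CTSB with normexp.

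Around these genes stands a wider set of pericellular proteolysis, taken from a list of 78 genes. It holds genes of the plasminogen system, metalloproteinase regulators, ADAM proteases, ADAMTS-like proteins, other cathepsins and cystatins, serine proteases and inhibitors, meprins and astacins, and heparan sulfate enzymes. Of the 78 genes, 46 were tested and 0 passed limma's adjusted threshold. At an unadjusted p under 0.05, 5 were higher and 2 lower (9.49% and 3.84% of all genes). The median log2 difference was 0.01. LGMN, the asparaginyl protease legumain, measured 442, 483 and 470 in control and 580, 562 and 546 in maspin (log2 difference 0.28, SE 0.08, adjusted p = 0.174). ADAM17, which releases TNF and several EGF receptor ligands from the cell surface, measured 45.1, 54.4 and 45.3 in control and 59.6, 59.7 and 61.6 in maspin. Neither gene's groups overlapped, and ADAM17 at 0.33 (SE 0.09, adjusted p = 0.192) passed without control replicate 2 (0.42, adjusted p = 0.0442), a setting that called 1.44% of all genes higher. TFPI2, a Kunitz inhibitor of plasmin that is held in the matrix, measured 166, 181 and 158 in control and 144, 140 and 123 in maspin. All its maspin arrays were below the controls, by a log2 difference of -0.31 (SE 0.09, adjusted p = 0.213) that passed with normexp (adjusted p = 0.0318). SERPINI1, a serpin that inhibits the tissue plasminogen activator, measured 14.6, 15.5 and 13.6 in control and 11.3, 12.7 and 11.5 in maspin, again without overlap (-0.30, SE 0.09, adjusted p = 0.199).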

How the data were processed

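Total RNA of the 2 lines was labelled with Cy5 and hybridised to 6 1-colour 3D-Gene arrays by the authors. Raw signal intensity and array background were deposited with a normalized intensity, made by the authors by subtracting that background and setting the median of every array to 25; a probe near the background is blank. A deposited table of all 6 samples repeats these values in whole numbers and was used as a score in 1 alternative; it differed from the arrays' own files by at most 0.5. The probe with the highest mean over the 6 arrays stood for a gene. As in the methods, a gene needed a mean above 10 in 1 of the groups, and also a value on at least 2 arrays of both. These genes were fitted as log2 values with limma 3.58.1 in R 4.3.3 (lmFit and eBayes, two-sided, MB-231-maspin minus MB-231-control), with Benjamini-Hochberg adjustment over 12766 genes. limma replaced the methods' t-test because it shares the spread over genes; with 3 arrays a group, the smallest p an exact permutation test allows is 0.1. Tables were made with pandas 2.3.3 in Python 3.11.15, and the code was tested on simulated data.

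The genes, lists and alternatives were chosen with earlier results of these data known. Genes named were those called, those at an unadjusted p under 0.05 without overlap, the tested gene of each role farthest from 0, the best known of each role whatever their values, and the 4 of the wider list with the smallest p. Names and gene order came from RefSeq for GRCh38.p14. The alternatives were the methods' t-test, limma with an intensity trend and robust prior, no minimum, a mean above 50, quantile normalization, normexp (offset 50) followed by it, log2(value + 10), the deposited table, fits of single probes, a block for the replicate number, and leaving out 1 array at a time. Slide and scan dates are not given in the sources used here, so no such batch was tested. Some genes of the lists are not reported here. The number of arrays limits the precision.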

Additional observations from a re-analysis of the deposited data

How the results depend on the processing

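With 16 alternatives, MMP7 stayed below 0 in the 15 that tested it. The count of the 26 protease genes called, 1 as reported, was 0 at a mean above 50, where MMP7 was not tested, 0 with the methods' t-test, 2 with normexp (MMP7 and CTSB) and 0 to 2 without single arrays. The wider list had 0 calls as reported, 1 with normexp and 0 to 1 without single arrays. All genes called, 109 as reported, numbered 43 at a mean above 50, 55 with no minimum, 239 with normexp, 21 with the methods' t-test and 29 to 218 without single arrays. Small differences changed sign: TIMP2 was -0.058 with normexp and -0.053 with quantile normalization, TIMP3 -0.024 and -0.016, and PLAT -0.015 and -0.0092. Without single arrays MMP11 ranged from -0.013 to 0.086, TIMP2 from -0.043 to 0.14, TIMP3 from -0.022 to 0.11, PLAT from -0.11 to 0.22, PLAUR from -0.19 to 0.13 and HPSE from -0.059 to 0.34. Without changing sign, MMP14 ranged from 0.027 to 0.19, MMP28 from -0.21 to -0.076, ADAMTS13 from 0.060 to 0.27, CTSD from -0.24 to -0.10, CTSL from -0.17 to -0.058 and CTSS from 0.062 to 0.22. The cause was not tested. The labels do not say whether the replicate numbers pair the arrays. Deviations from the mean of a line correlated at -0.37, 0.48 and 0.19 between same-numbered arrays and at -0.49 to 0.31 between the others. These values do not settle the pairing. With the replicate number as a block 1 of the 26 was called (MMP7, limma adjusted p = 0.00652). Dim probes limit the reading of the 27 genes under the minimum, and 3 arrays a line limit that of the rest.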
